A study of Mus with 8 samples.

Results

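The glucocorticoid receptor of mouse brown fat is described here with 5 genes that set or report its activity, in animals labelled as lacking Hilpda and in wild type animals. The members, Nr3c1, Hsd11b1, Tsc22d3, Fkbp5, Sgk1 and Zbtb16, are 6 of the 30702 genes with a named probe set on these arrays. Each was read from its single probe set that the platform annotation ties to that gene alone. The members were selected on their KO and wild type log2 values within replicates 1 and 2 and within replicates 3 and 4. Their differences between genotypes are therefore given as a description, with standard errors and no test.

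Glucocorticoids are adrenal steroids, and corticosterone is the active one in mice. The hormone enters cells, binds the receptor that a chaperone complex holds ready in the cytoplasm, and the receptor then moves to the nucleus and turns genes on or off. In fat, the enzyme encoded by Hsd11b1 regenerates active hormone from its inactive form, so local exposure can differ from that in blood. In brown adipocytes glucocorticoids are known to affect lipid storage and the thermogenic programme.

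Total RNA of dissected interscapular brown fat was hybridized to 8 arrays, 4 of animals with the genotype HILPDA KO and 4 of wild type animals. All are labelled as female, of the C57BL/6 strain background, and as untreated by any agent that the labels name. The sources used here do not give how the allele was made, which cells lack it or how old the animals were. Values are log2 expression values, so a difference of 1 is a doubling.

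Some facts about the arrays bear on every value. Replicates 1 and 2 of both genotypes (called set 1) had a median over all genes of 3.93 to 3.99, and replicates 3 and 4 (set 2) of 4.92 to 4.97, so levels were compared within a set. Hilpda itself read 4.45 and 4.37 in KO against 4.37 and 4.28 in wild type of set 1, and 5.6 and 5.51 against 6.0 and 5.92 in set 2. It was thus lower in KO in set 2 only, and "KO" below means the arrays labelled so. The Y-linked genes Uty, Eif2s3y and Kdm5d lay on 8 of 8 arrays above a background set at the 95th percentile of 1229 olfactory receptor genes. Xist, the transcript of the inactive X, did so on 0 of 8 and read 3.49 to 4.10, which goes against the label of female animals in both genotypes. All 9 measured markers of brown adipocytes, Ucp1 and Cidea among them, lay above that background on every array. Liver markers were high in set 1 and highest in KO replicate 1, and skeletal muscle markers varied widely, with values given further below.

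Hsd11b1 encodes 11-beta-hydroxysteroid dehydrogenase type 1, the enzyme that regenerates corticosterone. Within set 1, KO replicates 1 and 2 read 10.12 and 10.17 against 10.05 and 10.29 for the same wild type numbers. Within set 2, KO replicates 3 and 4 read 9.96 and 10.57 against wild type values of 9.0 and 9.48. The genotypes overlapped in set 1, with a difference of -0.02 (SE 0.24), and were parted in set 2, where KO was higher by 1.03 (SE 0.24), or 2.04-fold. The wild type arrays of set 2 gave the lowest values of this gene, although most genes read higher in set 2.

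Nr3c1 encodes the glucocorticoid receptor. In set 1 its KO values were 9.19 and 9.34, against wild type values of 9.21 and 9.0. In set 2 the KO values were 10.57 and 10.05, against 10.97 and 11.07. Set 1 showed overlapping genotypes with a difference of 0.16 (SE 0.18). Set 2 showed both KO values below both wild type values, with a difference of -0.71 (SE 0.18), a KO level 0.611 times that of wild type. The receptor and the enzyme that supplies its hormone therefore read in opposite directions in set 2, and neither was parted in set 1.

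Fkbp5 encodes a co-chaperone of Hsp90 that lowers the receptor's affinity for hormone and is itself induced by the receptor. Set 1 gave KO values of 6.61 and 7.30 and wild type values of 6.44 and 6.77. Set 2 gave KO values of 8.30 and 9.24 and wild type values of 8.03 and 8.30. KO was higher by 0.35 (SE 0.35) in set 1 and by 0.61 (SE 0.35) in set 2. Its replicates lay 0.69 and 0.94 apart in the KO arrays of the sets, more than the difference between genotypes. The lower KO and the higher wild type value of set 2 both round to 8.30, so the genotypes were parted there by less than the rounding.

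Tsc22d3 encodes GILZ, a leucine zipper protein induced by glucocorticoids and known for dampening inflammatory signalling. It read 8.29 and 8.35 in KO of set 1, against 6.93 and 7.27 in wild type. Set 2 held 8.0 and 9.11 for KO against 8.04 and 8.58 for wild type. The difference in set 1 was 1.22 (SE 0.36), or 2.33-fold, with a gap of 1.02 between the lowest KO and the highest wild type value. In set 2 the genotypes overlapped, the difference was 0.25 (SE 0.36), and the KO replicates lay 1.11 apart. Without KO replicate 4 the set 2 difference turned to -0.31.

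Zbtb16 encodes PLZF, a zinc finger repressor of transcription that glucocorticoids are known to induce in several cell types. It was the most variable member, with 10.58 and 12.10 in KO replicates 1 and 2 against 7.70 and 9.26 in wild type replicates 1 and 2. The KO arrays of set 2 read 11.56 and 12.75, and its wild type arrays 12.19 and 12.44. KO was higher in set 1 by 2.86 (SE 0.68), or 7.28-fold, although the replicates of each genotype there lay 1.52 and 1.56 apart. With any 1 array left out, that difference ranged from 2.08 to 3.64. In set 2 the KO values enclosed the wild type values, with a difference of -0.16 (SE 0.68).

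Sgk1 encodes a kinase induced by serum and glucocorticoids that regulates ion transport and FOXO transcription factors. It read 7.28 and 7.39 in KO of set 1, below the 7.68 and 7.78 of wild type. In set 2 it read 10.06 in both KO replicates, above the 8.04 and 8.55 of wild type. The differences were -0.40 (SE 0.17) in set 1 and 1.77 (SE 0.17), or 3.40-fold, in set 2. Sgk1 was the 1 member whose genotypes were parted in opposite directions in the sets, a pattern found in 12.7% of all genes. With any 1 array left out the set 2 difference ranged from 1.51 to 2.02.

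**Figure D1:**
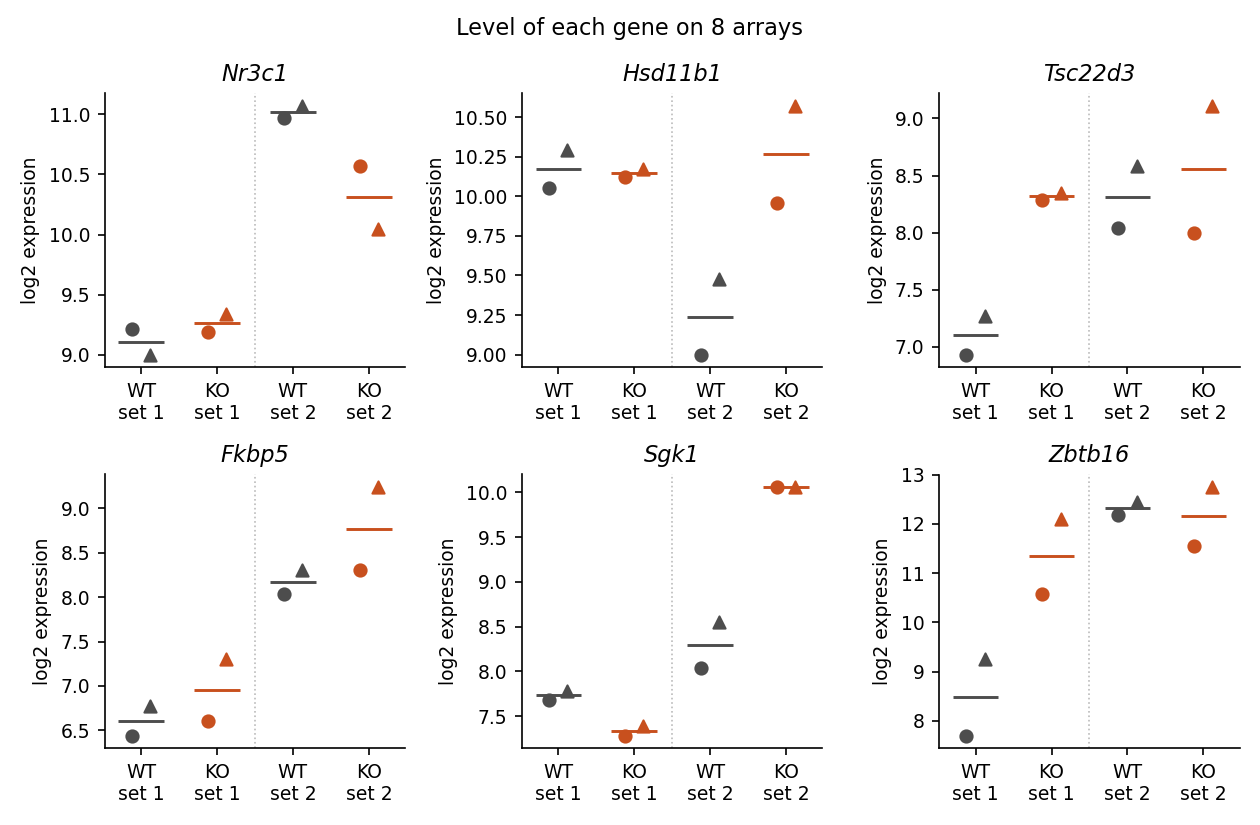
Log2 expression (vertical axis) of the 6 genes on 8 arrays, by genotype and array set; circles are replicates 1 and 3, triangles replicates 2 and 4, and bars the mean of 2 arrays. Zbtb16 and Tsc22d3 are parted in set 1 (KO higher by 2.86 and 1.22), whereas Sgk1 and Hsd11b1 are higher and Nr3c1 lower in KO of set 2.

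Different members were parted in each set. In set 1 both KO arrays lay above both wild type arrays for 2 members (Tsc22d3 and Zbtb16) and below for 1 (Sgk1), against 19.0% and 19.4% of all genes. In set 2 they lay above for 3 (Hsd11b1, Sgk1 and, by less than the rounding, Fkbp5) and below for 1 (Nr3c1), against 23.9% and 19.1% of all genes. No member was parted the same way in both sets, where 2.85% of all genes were higher and 2.46% lower in KO. These counts come from the contrast on which the genes were chosen, so nothing is read from them. With the set as a factor, the differences were 1.35 (SE 0.71) for Zbtb16, 0.74 (SE 0.30) for Tsc22d3, 0.68 (SE 0.41) for Sgk1, 0.50 (SE 0.25) for Hsd11b1, 0.48 (SE 0.24) for Fkbp5 and -0.28 (SE 0.20) for Nr3c1.

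**Figure D2:**
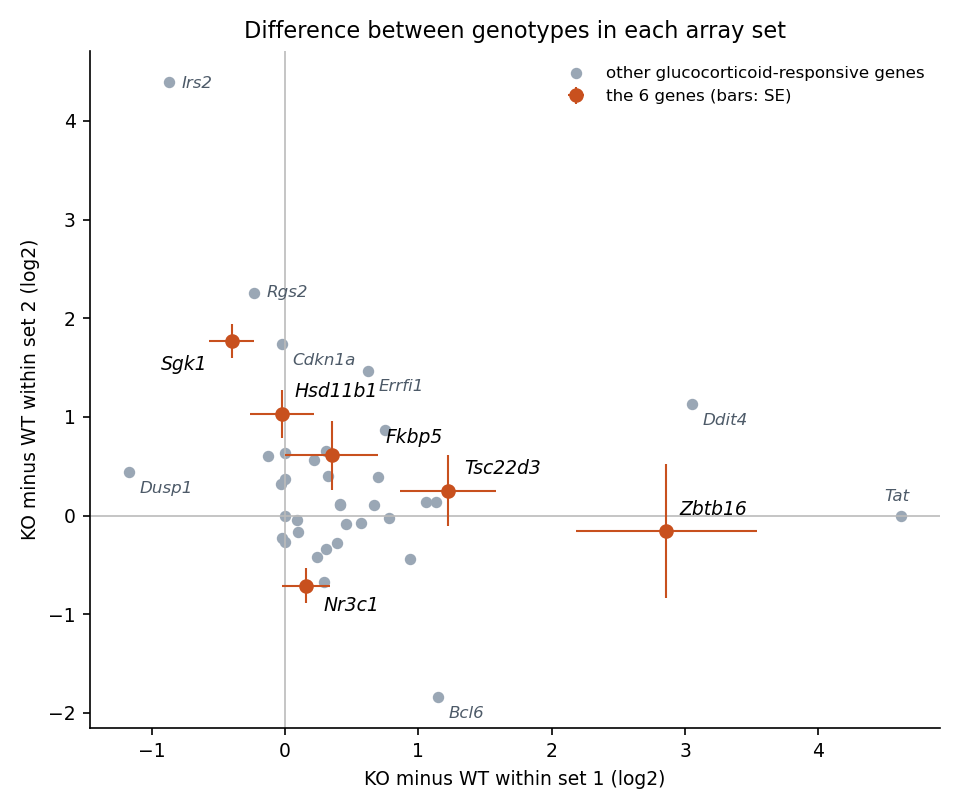
KO minus wild type on the log2 scale within set 1 (horizontal) and within set 2 (vertical) for the 6 genes with SE bars, and for 35 further glucocorticoid-responsive genes as points. Zbtb16 lies far along the set 1 axis (2.86 and -0.16) and Sgk1 along the set 2 axis (-0.40 and 1.77), and Irs2 is highest at 4.40 in set 2.

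Read across the sets, the wild type level of most members was higher in set 2, as it was for genes in general, whose median was higher by 0.85 in wild type and 0.88 in KO. The set 2 minus set 1 difference in wild type was 3.83 for Zbtb16, 1.92 for Nr3c1, 1.56 for Fkbp5, 1.21 for Tsc22d3, 0.57 for Sgk1 and -0.92 for Hsd11b1. After quantile normalization of all 8 arrays these became 2.71, 0.69, 0.28, -0.08, -0.73 and -2.15. Zbtb16 thus stayed higher and Hsd11b1 stayed lower in wild type of set 2 on both scales, whereas Tsc22d3 and Sgk1 changed sign. In KO the quantile-normalized differences were -0.41 for Zbtb16 and -1.26 for Hsd11b1, and Sgk1 stood at 1.30. The animals, the run and the normalization of the sets cannot be told apart.

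To describe how the members varied together, the mean of each set was subtracted and the 8 deviations were correlated. The values share the same 8 arrays and the same difference between genotypes, and no test is attached. Tsc22d3 went with Zbtb16 (r = 0.866) and with Fkbp5 (r = 0.723). Sgk1 went with Hsd11b1 (r = 0.899), and Nr3c1 ran against both Hsd11b1 (r = -0.899) and Sgk1 (r = -0.834). Sgk1 was nearly unrelated to Tsc22d3 (r = 0.0378). Fkbp5 went with both Tsc22d3 and Hsd11b1 (r = 0.774 with the latter).

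Among 3588 genes above the median level that varied enough, the closest patterns to each member were listed by the same correlation over 8 arrays. Tsc22d3 was most like Crebrf (r = 0.972), Foxo3 (r = 0.943) and Cblb (r = 0.939). Crebrf and Cblb read 1.02 and 1.27 higher in KO of set 1, and 0.04 and 0.05 higher in set 2. Zbtb16 was most like Lrrc8c (r = 0.986), Aff1 (r = 0.973) and Fam13a (r = 0.962), of which Fam13a read 1.88 higher in KO of set 1. Fkbp5 was most like Map3k6 (r = 0.996), Mir674 (r = 0.969) and Per1 (r = 0.945), a clock gene that glucocorticoids also induce. Sgk1 was most like Rnmt (r = 0.991), Net1 (r = 0.990) and Snrpa1 (r = 0.987), with Net1 at -0.64 in set 1 and 2.02 in set 2. Hsd11b1 was most like Nupr1l (r = 0.988), Lnx1 (r = 0.980) and the immediate early gene Fosb (r = 0.977). Nr3c1 was most like Timm22 (r = 0.980), Acp2 (r = 0.978) and Xlr3c (r = 0.977). Foxo3 and Per1 also belong to the list of further responsive genes described next.

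Of 36 further genes known to respond to glucocorticoids in some tissue, 35 were measured, and 26 of these (74.3%) stood above 0 in KO with the set as a factor, against 52.6% of all genes. The median difference was 0.26, against 0.0074 over all genes, and it became 0.44 without KO replicate 3 and 0.17 without KO replicate 4. Within set 1, 68.6% stood above 0, against 51.0% of all genes, and within set 2, 57.1% against 53.5%. The list also differed in level, as 30 of the 35 lay above background on every array, against 13850 of the 30702 genes. No list gene passed in limma with Benjamini-Hochberg adjustment over all genes, where 0 genes in all (0.0%) were called. An unadjusted p under 0.05 with the set as a factor was found for 6 of the 35, against 4.82% of all genes. The highest and lowest counts above 0 with 1 array left out were 30 and 24. The results of Ddit4 and Lpin1 in these data were known when the list was written, so the list is not independent of earlier findings.

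Errfi1, a feedback inhibitor of the EGF receptor, had the smallest p of the list. It read 9.21 and 8.87 in KO and 8.42 in both wild type arrays of set 1, and 9.87 and 10.72 against 8.49 and 9.15 in set 2. KO was above wild type without overlap in both sets, by 0.62 and 1.47, and with the set as a factor by 1.05 (SE 0.26, limma adjusted p = 0.984). Ddit4, an inhibitor of mTORC1, read 13.10 and 11.73 against 9.32 and 9.41 in set 1, and 10.61 and 11.85 against 9.49 and 10.71 in set 2, where the genotypes overlapped. Foxo3, a FOXO transcription factor, differed by 0.54 (SE 0.19), Lpin1, a phosphatidate phosphatase, by 0.81 (SE 0.31), and Klf15, a transcription factor of amino acid and lipid use, by 0.39 (SE 0.15). All 3 were parted in set 1, with mean differences of 0.70, 0.75 and 0.67 and gaps between the genotypes of 0.47, 0.28 and 0.60. They overlapped in set 2, with mean differences of 0.39, 0.87 and 0.11.

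In set 1, 15 of the 35 genes (42.9%) had both KO arrays above both wild type arrays, against 19.0% of all genes, and the median difference was 0.31. In set 2 the count was 8 of 35 (22.9%), against 23.9% of all genes, with a median of 0.12. Limma called 0 list genes within set 1 (0.0% of all genes called) and 0 within set 2 (0.00326% of all genes called). An unadjusted p under 0.05 was found for 7 of the 35 within set 1, against 7.73% of all genes, and for 7 within set 2, against 15.1% of all genes. A test of whether the KO difference varied with the set called 0 list genes (lowest adjusted p = 0.0622, for Irs2), against 0.498% of all genes. That last share was unstable, as it rested on 153 genes and fell to between 0 and 10 genes with any 1 array left out. The values of Pck1, Mt1, Mt2 and Pdk4 were the same to within 0.02 on all 4 arrays of set 1, so these genes could show no difference there.

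Some list genes stood far from 0 in set 2 and were picked for naming once their values had been seen. Irs2, an insulin receptor substrate, read 14.76 and 14.09 in KO against wild type values of 9.04 and 11.02. It differed by 4.40 (SE 0.62) there and by -0.87 in set 1, where it was also parted. Rgs2, a regulator of G protein signalling, read 15.35 and 15.07 against 11.62 and 14.27. Cdkn1a, the cell cycle inhibitor p21, read 15.42 and 15.74 against 13.54 and 14.13, a difference of 1.74. Bcl6, a transcriptional repressor, was at 8.46 and 8.61 against 10.48 and 10.28, a difference of -1.84, after 1.15 in set 1.

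**Figure D3:**
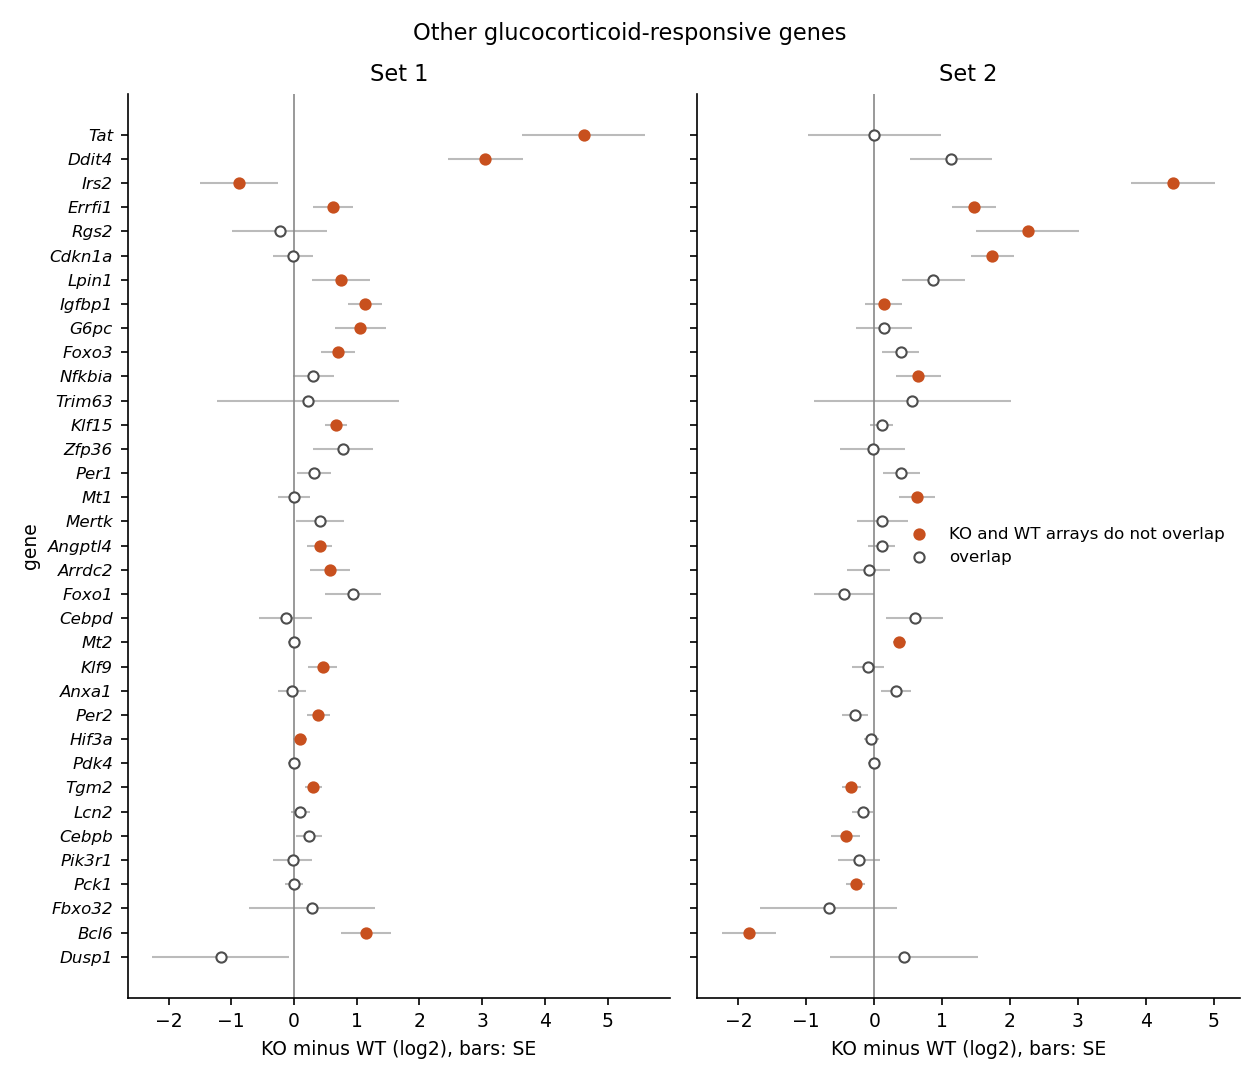
KO minus wild type (log2, horizontal axis, bars are SE) of 35 glucocorticoid-responsive genes within set 1 and set 2, ordered by the difference with the set as a factor; filled points mark genes whose KO and wild type arrays do not overlap. Filled points above 0 number 15 in set 1 and 8 in set 2.

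Liver transcripts differed between the set 1 arrays and bear on part of this list. They fell from replicate 1 to replicate 2 in both genotypes, and KO replicate 2 lay close to wild type replicate 1. Over 11 liver markers the KO arrays of set 1 averaged 11.97 and 8.41 and the wild type arrays 8.29 and 5.97, with 4.08 to 4.26 in set 2, where 2 of 11 lay above background on all arrays of each genotype. Tat, a classic glucocorticoid-induced enzyme of liver, read 10.81 and 7.23 in KO against 4.58 and 4.22 in wild type of set 1, with a range of 4.01 to 4.19 in set 2. Igfbp1 and G6pc, also best known from liver, read 1.13 and 1.06 higher in KO of set 1. Each lay above background on only 3 of 8 arrays. KO replicates 1 and 2 read 5.48 and 4.54 for Igfbp1 and 5.57 and 4.26 for G6pc. Without Tat, Pck1, G6pc and Igfbp1, 12 of 31 genes were parted upward in set 1 (38.7%), and the median with the set as a factor was 0.25. KO replicate 1 had the most liver signal. KO replicate 2 had more skeletal muscle signal (mean of 12 markers 9.72, against 6.41 in KO replicate 1), so these 2 arrays differed in both tissues. Of the 15 genes parted upward in set 1, 10 were higher in KO replicate 2 than in KO replicate 1. All 6 members were too, by 0.05 (Hsd11b1) to 1.52 (Zbtb16), and these included Sgk1, which was lower in KO there. Over all genes parted upward in set 1, 3014 were higher in KO replicate 1 and 2801 in KO replicate 2. Apart from these values, the part of liver RNA in the set 1 differences was not tested.

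Skeletal muscle and other cell types varied as well. The mean of 12 muscle markers was 6.41, 9.72, 5.82 and 11.16 for KO replicates 1 to 4, against 8.54, 8.07, 11.46 and 9.89 for wild type replicates in that order. In set 2 muscle was thus lower in replicate 3 than in replicate 4 among KO arrays and higher among wild type arrays. Tsc22d3, Fkbp5, Zbtb16 and Hsd11b1 were lower in replicate 3 than in replicate 4 in both genotypes. Nr3c1 was lower in replicate 3 in wild type and higher in KO, and Sgk1 read 10.06 in both KO replicates. The part of muscle RNA in the member values was not tested. The list genes Fbxo32 and Trim63, known from muscle atrophy, read 8.05 and 11.49 and 6.83 and 12.06 in KO replicates 3 and 4, and 10.98 and 9.91 and 9.30 and 8.46 in the wild type replicates. In set 2 adipocyte markers averaged 16.19 and 15.87 in KO against 16.55 and 16.44 in wild type, and fibroblast markers 7.79 and 7.64 against 8.07 and 7.99. Macrophage markers averaged 7.65 and 7.88 against 7.36 and 7.57. Those means were parted by little, and some macrophage markers overlapped between genotypes. Cd14 had the widest gap of them (6.33 and 5.93 against 5.44 and 5.12). Endothelial markers averaged 10.12 and 10.24 against 9.70 and 9.95. The lack of overlap in the endothelial means rested on Cldn5 (9.14 and 9.29 against 7.11 and 7.07). Without it the means were 10.24 and 10.36 against 10.03 and 10.31, and overlapped, with KO still higher at each replicate number. In tissue RNA, fewer cells of a type and less RNA per cell cannot be told apart, and the part of these shifts in the set 2 differences of Nr3c1, Hsd11b1 and Sgk1 was not tested. Lymphocyte markers averaged 3.48 to 4.54, with 0 of 9 above background on all arrays of set 1.

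**Figure D4:**
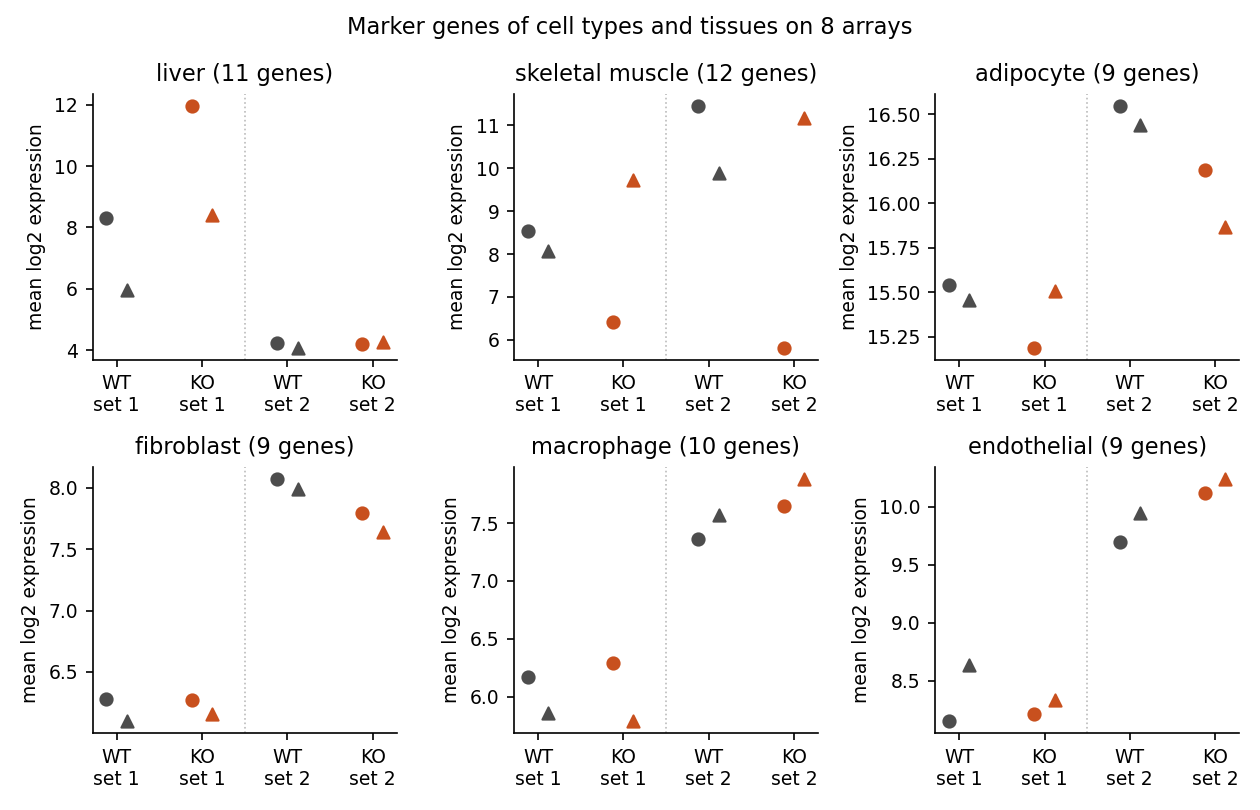
Mean log2 expression (vertical axis) of marker genes of 6 tissues or cell types on each array, by genotype and set; circles are replicates 1 and 3, triangles replicates 2 and 4. Liver markers are high in set 1 only, up to 11.97 in KO replicate 1, and muscle markers range from 5.82 to 11.46.

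Transcripts of proteins that hold the receptor ready or carry its signal showed small differences with the set as a factor. Of 20 chaperone and coregulator genes 16 were measured, 9 stood above and 7 below 0 with the set as a factor, and the median was 0.05. In that fit limma called 0 of them, and 0 had an unadjusted p under 0.05, against 4.82% of all genes. Within set 1 limma called 0, and 3 had an unadjusted p under 0.05, against 7.73% of all genes. Within set 2 it called 0, and 2 had an unadjusted p under 0.05, against 15.1%. In opposite directions in the sets 3 (18.8%) were parted, against 12.7% of all genes. The 5 with the smallest p with the set as a factor were all chaperone components. Stip1, which links Hsp70 to Hsp90, differed by 0.25 (SE 0.13) and Ppid, a cyclophilin of the receptor complex, by 0.14 (SE 0.11). Ptges3, the p23 co-chaperone, differed by 0.18 (SE 0.14) and Fkbp4, the counterpart of Fkbp5 that aids nuclear entry, by 0.11 (SE 0.09). Hsp90aa1, the inducible Hsp90, differed by 0.26 (SE 0.24), with 13.84 and 13.55 in KO against 12.83 and 12.95 in wild type of set 1 and overlapping values in set 2.

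Genes of corticosteroid handling were mostly at background. Of 8 measured, 3 lay above the olfactory receptor background on every array: H6pd and the steroid exporters Abcb1a and Abcb1b. H6pd supplies the NADPH that lets the Hsd11b1 enzyme work as a reductase, and it read 9.99 and 9.95 in KO against 9.44 and 9.47 in wild type of set 1. In set 2 it read 9.67 and 10.38 in KO against 10.31 and 10.23 in wild type, so it did not follow Hsd11b1, and with the set as a factor it differed by 0.14 (SE 0.20). Hsd11b2, which inactivates corticosterone, and the steroid-synthesis genes Cyp11a1 and Cyp11b1 lay above background on 0 of 8 arrays. With the set as a factor limma called 0 of the 8, and 0 had an unadjusted p under 0.05, against 4.82% of all genes. Within set 1 limma called 0, and 1, H6pd, had an unadjusted p under 0.05, against 7.73% of all genes. Within set 2 it called 0, and 0 had an unadjusted p under 0.05, against 15.1%.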

How the data were processed

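Per the labels, RMA in Affymetrix Expression Console (core-exon analysis) made the deposited log2 values. The series text names a Clariom S array; no version or genome build is named in the sources used here. No scanner files were used. Besides controls there were 65956 probe sets, of which 31258 were tied to 1 gene, 1492 to several and 33206 to none named here; symbols were updated through a RefSeq table. A gene with several probe sets took that with the highest mean, leaving 30702 genes.

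KO and wild type were compared by limma 3.58.1 (R 4.3.3) with the array set as a factor, and within and between sets with 4 set-by-genotype means. Benjamini-Hochberg adjusted p under 0.05 over all genes was the threshold. On simulated arrays, 81 of 100 genes changed by 1 and 95 of 100 changed by 2 were recovered, with 6 false calls. Only genes above the median level were changed there, by the same amount in both sets. The simulated spread was that within a set and genotype. The real differences varied between the sets, so these counts do not give the share of real changes that the fit would find. The number of arrays limits the precision.

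The members, lists and set split were chosen with earlier results of these data known. Named beside the members were the 5 list genes with the smallest p (3 for lists under 15 genes), any called list gene, and the 3 closest patterns per member among genes above the median with an SD of at least 0.3 (3 predicted or similar genes were passed over). Irs2, Rgs2, Cdkn1a, Bcl6, Tat, Igfbp1, G6pc, Fbxo32, Trim63, Nr3c2, Pck1, Mt1, Mt2, Pdk4 and Cldn5 were named after their values were seen. So were Cd14, Esr1, Tsc22d1 and Pgr. Alternatives are given in the closing section.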

Additional observations from a re-analysis of the deposited data

Results flagged for a closer look

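Among the genes named, 5 arrays lay far from the 3 others of their group: wild type replicate 4 for Errfi1 (9.15), Ddit4 (10.71) and Mt1 (17.99), wild type replicate 1 for Cldn5 (5.86), and KO replicate 4 for Lpin1 (16.91). Of 128 groups looked at, chance alone would mark about 1 in 20, and both sets enter each group.

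KO and wild type were parted in opposite directions in the sets for the 9 genes given here. Over all genes the share was 12.7%. These 9 were chosen on this contrast, for likeness to a member or after their values were seen, so their number is not compared with that share. For the member Sgk1, chosen on this contrast, the difference between the sets was not tested. Sgk1 differed by -0.40 in set 1 and 1.77 in set 2. Irs2 differed by -0.87 and 4.40 (adjusted p of the difference 0.0622 in limma), and Bcl6 by 1.15 and -1.84 (limma adjusted p = 0.0838). The endothelial marker Cldn5 differed by -0.72 and 2.13 (limma adjusted p = 0.0584). The other 5 were selected for their likeness to a member, so no test is given: Net1 differed by -0.64 and 2.02, Rnmt by -0.20 and 1.07, and Snrpa1 by -0.28 and 0.75 beside Sgk1. Timm22 differed by 0.25 and -0.85, and Acp2 by 0.26 and -0.91 beside Nr3c1.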

How the results depend on the processing

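With the set as a factor 0 genes were called, and the count stayed 0 without a set factor, with the replicate number as a block, after quantile normalization, median centring and the other alternatives; leaving out 1 array gave 0 to 1. Within set 1 the count of 0 became 0 to 14 with 1 array left out (14 without KO replicate 2). Within set 2 the count of 1 became 0 after quantile normalization, 0 with each set fitted alone, 14 among genes above the median level, and 0 to 10 with 1 array left out. The 153 genes whose difference varied between the sets became 82 after median centring, 379 among genes above the median level and 6 with trend and robust variances. With 1 array left out they became 0 to 10 (0 without KO replicate 1 or wild type replicate 1, 2 or 3; 4 without KO replicate 2; 8 without KO replicate 3; 1 without KO replicate 4; 10 without wild type replicate 4). A left-out array leaves 1 array in its set and genotype, which is taken to vary like the rest; the cause of these changes was not tested. The median of the responsive genes stayed between 0.17 and 0.44, and that of chaperones and coregulators between -0.05 and 0.08. Of 258 recomputed member differences 17 moved by more than the spread between replicates and 6 changed sign. With 1 array left out, the signs changed for Hsd11b1 in set 1 (-0.14 to 0.10, and 0.07 after quantile normalization) and for Tsc22d3 (-0.31 to 0.80) and Zbtb16 (-0.75 to 0.44) in set 2. Fkbp5 ranged from 0.01 to 0.70 in set 1 and from 0.14 to 1.07 in set 2, and Nr3c1 from -0.97 to -0.45 in set 2. With the set as a factor, Sgk1 ranged from 0.36 to 0.92 and Nr3c1 from -0.41 to -0.09. Same-numbered arrays correlated at 0.701, 0.473, 0.479 and 0.61 in their deviations from the group mean. Once the mean of each set and genotype was removed, the values were 0.107, 0.107, -0.0891 and -0.0891. With 2 arrays in each such mean, replicates 1 and 2 share a value by construction, as do 3 and 4. Little correlation by replicate number was thus left beyond the set, and these values cannot settle whether the numbers pair animals. The unadjusted p was under 0.05 for 1480 genes with the set factor and for 1234 with the replicate block.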

Other observations

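Relatives of the members offered a contrast within families. Of 9 measured, limma called 0 with the set as a factor, and 2 had an unadjusted p under 0.05, against 4.82% of all genes. Within set 1 limma called 0, and 1 had an unadjusted p under 0.05, against 7.73% of all genes. Within set 2 it called 0, and 5 had an unadjusted p under 0.05, against 15.1% of all genes. Sgk3 and Sgk2, kinases related to Sgk1, were lower in KO without overlap in both sets, as 2.46% of all genes were, by -0.08 and -0.35 for Sgk3 and by -0.29 and -0.57 for Sgk2. With the set as a factor they differed by -0.22 (SE 0.08) and -0.43 (SE 0.18), whereas Sgk1 turned from lower in set 1 to higher in set 2. Parting in opposite directions was not particular to Sgk1, but the relatives that did so differed by less. Among the 9 relatives, 3 (33.3%) were also parted in opposite directions in the sets, against 12.7% of all genes. They were Esr1 (-0.23 in set 1 and 0.56 in set 2), Tsc22d1 (-0.10 and 0.34) and Pgr (-0.05 and 0.09). Pgr lay above background on 0 of 8 arrays. Nr3c2, the mineralocorticoid receptor, which also binds corticosterone, read 6.16 and 6.23 in KO against 6.58 and 6.63 in wild type of set 1, and overlapped in set 2. Zbtb7b, a zinc finger factor of the same family as Zbtb16, was at 6.29 and 5.98 in KO against 7.06 and 6.68 in wild type of set 2, and at 5.68 to 5.71 on all arrays of set 1.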
